A study of Mus musculus with 2 samples.

Results

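The solute carriers described here are the membrane transporters of the Slc gene series outside the families Slc2, Slc3, Slc4, Slc7, Slc9, Slc11, Slc16, Slc25, Slc30, Slc39 and Slc40. The annotation GENCODE vM21 on GRCm38 (mm10) holds 371 protein-coding Slc genes, of which 228, in 38 families, lie outside these 11 families. Of the 228 genes, 119 reached 1 TPM in a library, either without or with RANKL, and were taken as members, 5 had an assembled locus but stayed below that level in both, and 104 had no locus in either library. TPM, the unit of the deposited levels, is scaled for transcript length, so that levels of genes with 1 locus each can be compared. The TPM of a gene assembled as several loci was summed, which raises its level beside that of a gene with 1 locus. Slc12a2, for example, had 10.2 TPM over 7 loci in the library without RANKL, but 1.43 as their mean weighted by exon bases. The level itself chose the members: 95 passed in both libraries, 4 only in the library without RANKL and 20 only in the library with RANKL, so that these 24 could only lie on the side through which they passed. Just inside the limit were Slc1a2 with a highest TPM of 1.04, Slc22a23 with 1.11 and Slc52a3 with 1.22, and just outside it were Slc18a2 with 0.943 and Slc19a3, Slc43a1, Slc6a3 and Slc12a8, each with 0.754.

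Bone marrow cells of wild-type C57BL/6J mice were grown with macrophage colony-stimulating factor (M-CSF) at 20 ng/mL for 2 days and then either with M-CSF alone (M) or with M-CSF and 100 ng/mL of receptor activator of NF-κB ligand (RANKL), the cytokine that turns macrophage precursors into osteoclasts (MR). RNA of each culture was sequenced as 1 library, so the 2 libraries hold no replicate, no test was possible, and every difference below describes these libraries only. The labels give 2 further days with RANKL and the culture methods give 3. The depth was about 3.63 Gb of aligned bases in M and 2.98 Gb in MR. All 10 osteoclast markers were higher in MR, their summed TPM being 152 in M and 25318 in MR, while 4 of 7 macrophage markers were lower in MR, with sums of 20413 and 7906. Summed levels in M and MR were 1362 and 950 TPM for 7 neutrophil genes, 516 and 45.6 for 3 megakaryocyte genes, of which only Pf4, with 505 and 38.4, was past a log2 ratio of 1, and at most 24.6 for the erythroid, lymphoid, stromal, mast cell and dendritic lists. The part of other cells in the differences was not tested, and in such bulk samples fewer cells of a type and less RNA per cell cannot be told apart.

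Solute carriers move small molecules across membranes by binding them on one side and releasing them on the other, driven by gradients of the substrate itself or of sodium, protons or other ions. Carriers of the plasma membrane take up amino acids, sugars, nucleosides, vitamins and ions, whereas those of organelles let degradation products out of lysosomes or bring activated sugars into the Golgi apparatus. Osteoclasts are large multinucleated cells of the macrophage lineage that acidify and dissolve bone, and the family is best known in them for the ion exchangers that accompany acid secretion, which belong to families left out here.

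Of the 119 solute carriers, 33 were higher in MR and 16 were lower in MR by more than 1 on the log2 scale, computed as log2((TPM in MR + 1)/(TPM in M + 1)), and 70 lay within that limit. Over the 12044 protein-coding genes that reached 1 TPM in M or MR, 19.3% were higher and 11.7% were lower by the same limit. The 33 include 13 carriers with no assembled locus in M, and the 16 include 3 with none in MR, for which no fold is given. Among the 77 members at 10 TPM or more, 17 were higher and 14 were lower, beside 17.5% higher and 11% lower among the 8328 coding genes above that level. The members' median log2 ratio was 0.29, and that of all tested coding genes was 0.19. Of the 95 members at 1 TPM or more in both libraries, 16 were higher and 13 were lower, with a median of 0.06 and a 95% interval over genes of -0.09 to 0.34, so that the counts and medians over all members rest in part on carriers that passed through 1 library. The coding genes were not filtered in both libraries, so these 16, 13 and 0.06 have no matching share or median. With median-of-ratios scaling the medians of all members and of all tested coding genes were 0.15 and 0.06. The 101 detected solute carriers of the families left out had 22 higher, 18 lower and a median of 0.14. The summed TPM of the members was 3687 in M and 3968 in MR, so that their total level was close in the 2 libraries although single carriers differed widely.

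**Figure D1:**
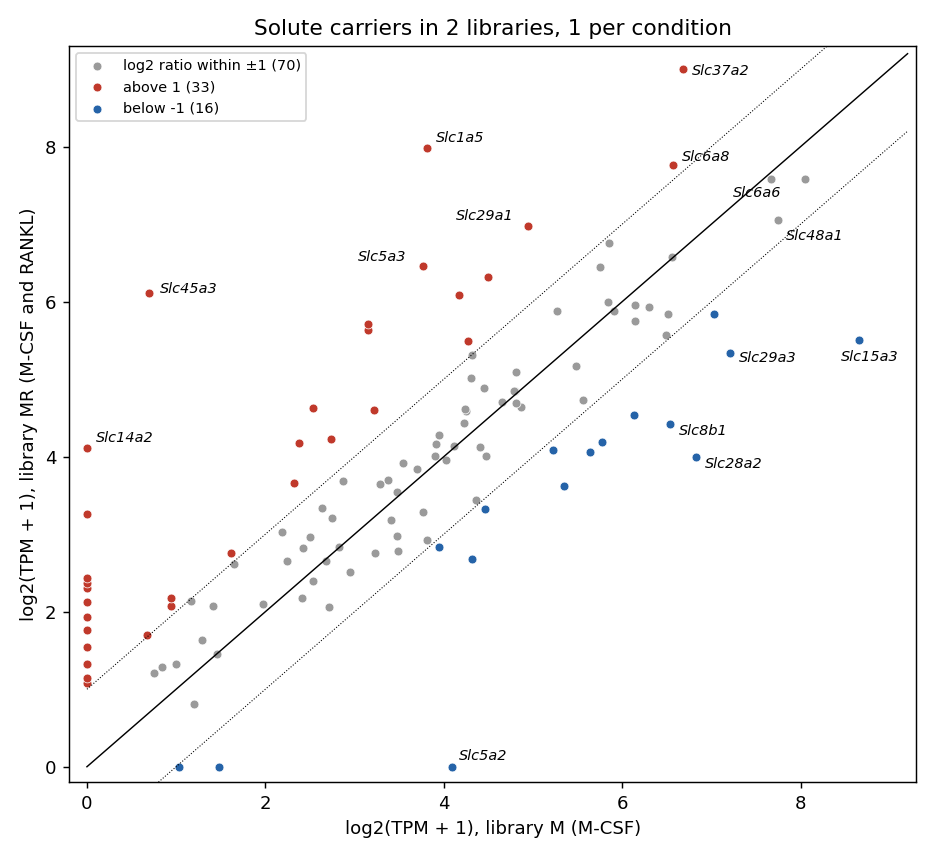
Level of each of the 119 solute carriers as log2(TPM + 1) in library M (horizontal) and library MR (vertical), 1 point per gene; the solid line marks equal levels and the dotted lines a log2 ratio of 1 in either direction. The 33 red points lie above the upper dotted line and the 16 blue points below the lower one, with Slc37a2 highest in MR and Slc15a3 highest in M.

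The promoters of 6 carriers are shown as examples of carriers past the limit whose window held a match to 1 of 3 motifs, and carriers past the limit without a match, such as Slc44a1 and Slc38a2, are not shown. They were chosen after their values were seen. In each case the start site lay within 59 bases of the 5′ end of the most abundant locus of the gene, in whichever library that was, while the other library could begin elsewhere. Each run is the 250 bases before the RefSeq start site on GRCm38.p6, written 5′ to 3′ on the strand of the gene, with capitals marking an AP-1 site (TGANTCA), an NFAT core (GGAAAA) or an E-box (CACGTG) on either strand. Slc37a2, Slc6a12, Slc45a3 and Slc29a1 were higher in MR, and Slc28a2 and Slc36a1 were lower.
Slc37a2, chr9:37255739-37255988, minus strand: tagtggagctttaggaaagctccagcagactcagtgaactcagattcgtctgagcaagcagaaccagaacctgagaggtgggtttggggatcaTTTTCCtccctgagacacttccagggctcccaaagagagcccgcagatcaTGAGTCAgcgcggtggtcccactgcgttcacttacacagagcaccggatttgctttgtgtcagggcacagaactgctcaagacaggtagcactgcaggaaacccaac
Slc6a12, chr6:121342324-121342573, plus strand: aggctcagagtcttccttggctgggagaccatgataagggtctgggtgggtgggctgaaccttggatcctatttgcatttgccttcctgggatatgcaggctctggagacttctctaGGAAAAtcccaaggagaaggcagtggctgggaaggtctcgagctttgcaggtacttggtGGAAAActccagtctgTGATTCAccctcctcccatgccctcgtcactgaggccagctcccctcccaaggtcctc
Slc45a3, chr1:131962665-131962914, plus strand: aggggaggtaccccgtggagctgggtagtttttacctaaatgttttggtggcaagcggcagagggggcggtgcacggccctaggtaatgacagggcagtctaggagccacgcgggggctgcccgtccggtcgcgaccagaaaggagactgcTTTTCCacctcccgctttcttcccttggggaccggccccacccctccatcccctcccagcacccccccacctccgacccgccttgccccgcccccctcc
Slc29a1, chr17:45599619-45599868, minus strand: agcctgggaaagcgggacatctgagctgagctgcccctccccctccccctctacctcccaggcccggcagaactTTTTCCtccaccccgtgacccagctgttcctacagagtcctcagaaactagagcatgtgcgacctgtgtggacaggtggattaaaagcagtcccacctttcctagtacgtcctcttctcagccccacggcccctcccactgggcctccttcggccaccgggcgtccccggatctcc
Slc28a2, chr2:122426185-122426434, plus strand: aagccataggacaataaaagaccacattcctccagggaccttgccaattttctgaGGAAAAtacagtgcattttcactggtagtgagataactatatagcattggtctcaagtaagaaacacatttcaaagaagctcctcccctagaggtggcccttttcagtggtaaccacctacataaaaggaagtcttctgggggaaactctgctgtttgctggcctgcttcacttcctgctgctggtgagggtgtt
Slc36a1, chr11:55204090-55204339, plus strand: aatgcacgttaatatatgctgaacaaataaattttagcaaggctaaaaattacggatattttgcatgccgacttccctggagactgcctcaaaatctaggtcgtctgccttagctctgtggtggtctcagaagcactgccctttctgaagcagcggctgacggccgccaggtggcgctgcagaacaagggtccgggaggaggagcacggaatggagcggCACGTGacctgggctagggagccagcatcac

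RefSeq entries were matched for 91 of the 119 members, and Slc1a5 and Slc15a3 were among those without one. The start site nearest to the 5′ end of the most abundant locus was used, but it could lie far away, 364059 bases for Slc24a3. Among windows with a match, those of Slc24a4, Slc41a3 and Slc35e3 (E-box) lay 94044, 14492 and 10143 bases away. That of Slc24a5 (AP-1 site) lay 19289 bases away, and that of Slc41a2 (NFAT core) 21405. The counts below therefore include windows that are not near the assembled start. Of these 91 windows, 6 held an AP-1 site, and they belonged to 3 of 24 carriers higher in MR, 0 of 11 lower in MR and 3 of 56 within the limit. The 3 higher carriers were Slc37a2, Slc6a12 and Slc6a17. An AP-1 site was present in 4.36% of the windows of 9565 tested coding genes and in 6.75% of all 32851 windows. The NFAT core was present in 7 of the 24 higher, 1 of the 11 lower and 5 of the 56 other carriers, and in 18.4% of the tested genes and 20.4% of all windows. The E-box was present in 4 of 24, 3 of 11 and 8 of 56 carriers, and in 8.47% and 6.02% of the comparison windows. The CLEAR element of lysosomal genes, a longer run that contains the E-box, was in 0 of the 91 windows. It is rare, at 0.565% of the tested genes and 0.240% of all windows, so that 0 of 91 says little. The interferon element core was in 1 window, beside 2.86% and 2.98%. The amino acid response element (TGATGNAA) was also in 1, beside 2.06% and 3.45%. A match to such short letters describes the window and not the binding of a factor.

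Among carriers of amino acids and peptides, 26 of 52 annotated genes were members, of which 8 were higher in MR and 3 were lower, with a median log2 ratio of 0.23. Of the 8, 4 had passed the level only through MR, and of the 3, 1 only through M, so that these could lie on no other side. Of the 21 at 1 TPM or more in both libraries, 4 were higher and 2 were lower, with a median of 0.15. For this and the other groups, the shares of all tested coding genes were 19.3% higher and 11.7% lower. These shares go with the counts over all members of a group and not with those at 1 TPM or more in both libraries. Slc1a5, the sodium-dependent exchanger of glutamine and other neutral amino acids known as ASCT2, was listed at 13.1 TPM in M and 252 TPM in MR. This was a 19.3-fold higher level and a log2 ratio of 4.17, with an approximate counting interval of 3.98 to 4.36 that covers the sampling of reads only. The gene lies at chr7:16781340-16798274, and its main locus covered 98.8% of the exon bases in M and 98.1% in MR. A second, short locus added 0.11 TPM in M and 6.30 in MR to these sums. Slc38a2, a sodium-coupled carrier of small neutral amino acids, was listed at 21.6 TPM in M and 78.5 in MR (log2 ratio 1.81). Slc6a8, the creatine carrier on the X chromosome, had 94.0 TPM in M and 217 in MR (log2 ratio 1.20). Slc6a6, the taurine carrier and one of the most abundant members, had 263 TPM in M and 191 in MR, within the limit. Slc6a12 and Slc6a17 had no locus in M and 3.93 and 3.35 TPM in MR. Slc6a12, which takes up betaine and GABA, was covered over 99.7% of its exon bases by a single locus.

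The enzymes that use or supply glutamine, glutamate and asparagine were read beside these carriers. All 10 listed enzymes had a positive log2 ratio, 4 were above 1 and none was below -1, with a median of 0.82. Of the 12044 tested coding genes, 7164 had a positive log2 ratio, 19.3% were higher and 11.7% were lower. Asparagine synthetase (Asns) had 18.7 TPM in M and 76.5 in MR, and the aspartate aminotransferases Got1 and Got2 had log2 ratios of 1.48 and 1.04.

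A list of 9 carriers of the lysosome or late endosome was read next, since these carriers return the products of degradation to the cytosol. None of the 9 was higher in MR by more than 1, 3 were lower and 7 had a negative log2 ratio, with a median of -0.83 and summed levels of 998 TPM in M and 360 in MR. Of the 12044 tested coding genes, 4880 had a negative log2 ratio, 19.3% were higher and 11.7% were lower. The list was made by hand and may leave out other carriers of these organelles, so its counts describe the 9 only. Slc15a3, a proton-coupled carrier of histidine and short peptides, was the most abundant member in M at 402 TPM and had 44.5 TPM in MR. Its level was 9.03-fold lower, a log2 ratio of -3.15 with a counting interval of -3.28 to -3.01. Its relative Slc15a4 had 90.6 TPM in M and 56.1 in MR, within the limit at -0.68, but -1.56 in coverage per aligned Gb. Slc36a1, which exports small neutral amino acids with protons, had 39.9 and 11.3 TPM, a log2 ratio of -1.73. Slc29a3, the lysosomal nucleoside carrier, had 146 and 39.3 TPM, a log2 ratio of -1.87. In M, however, Slc29a3 was split into a locus of 78.3 TPM over its 3′ part and one of 68.2 TPM over the remaining exons, and with the mean over loci its log2 ratio was -0.92. In MR the single locus of Slc29a3 left out most of the 3′ part and covered 34.4% of the exon bases. The 5 remaining carriers of the list had log2 ratios within the limit, namely Slc46a3 at -0.92, which was -1.06 with median-of-ratios scaling and past the limit, Slc38a7, a glutamine exporter, at -0.83, the heme carrier Slc48a1 at -0.70, the sialic acid exporter Slc17a5 at 0.05 and Slc38a9, which senses arginine for mTORC1, at 0.15. Slc48a1 was abundant in both libraries, with 214 TPM in M and 132 in MR.

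**Figure D2:**
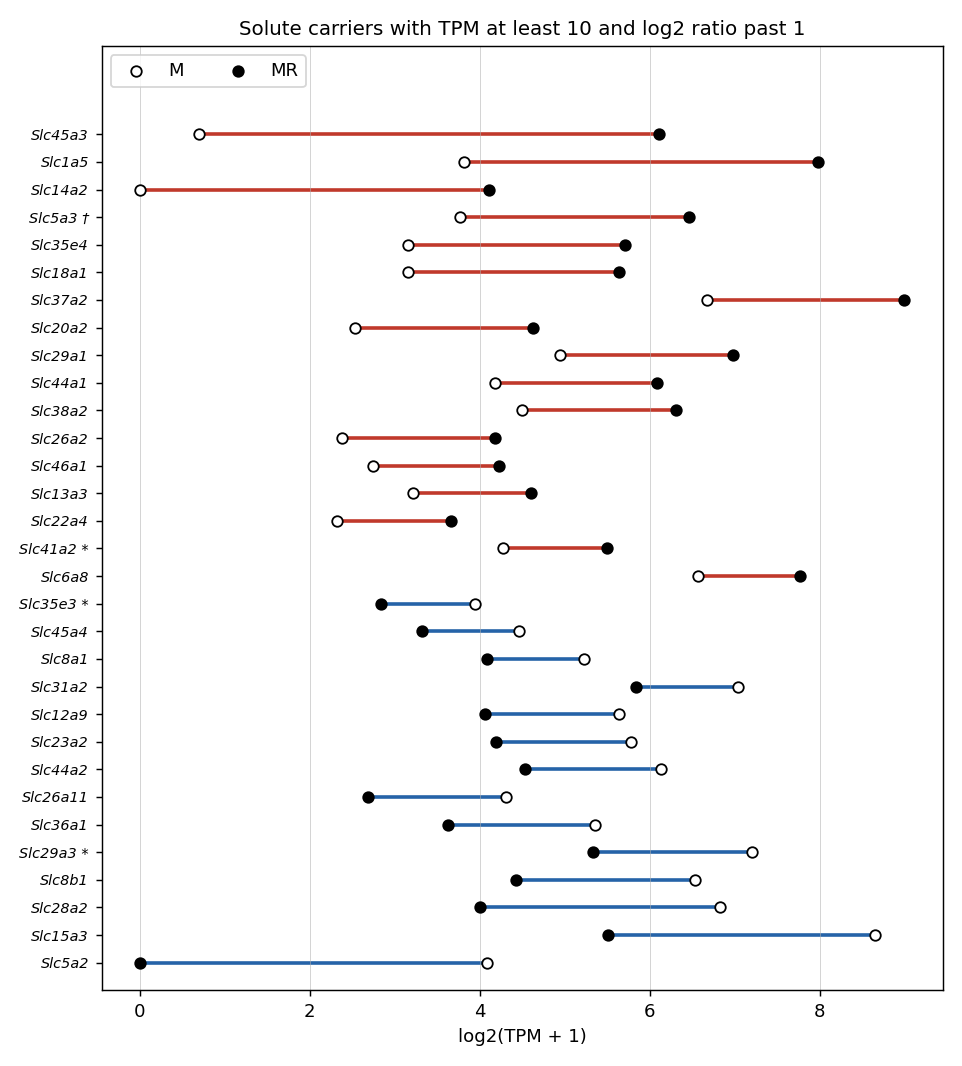
Levels of the 31 solute carriers at 10 TPM or more with a log2 ratio past 1, as log2(TPM + 1) on the horizontal axis, with open circles for M, filled circles for MR, red lines for carriers higher in MR and blue lines for those lower in MR. An asterisk marks the 3 carriers whose ratio was within the limit with the mean over loci, a dagger marks the locus that Slc5a3 shared with Mrps6, and Slc14a2 and Slc5a2 are drawn at 0 in the library where no locus was assembled.

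Among carriers of sugars, inositol and sugar phosphates, 11 of 22 genes were members, with 3 higher, 2 lower and a median of 0.05. Of the 8 at 1 TPM or more in both libraries, 2 were higher and 1 was lower, with a median of 0.20. Slc37a2, a sugar phosphate exchanger of the endoplasmic reticulum, was the most abundant member in MR, with 101 TPM in M and 510 in MR. Its level was 5.02-fold higher, a log2 ratio of 2.32 with a counting interval of 2.24 to 2.39. The 3 other genes of its family lay within the limit, where Slc37a1 had a log2 ratio of -0.03, Slc37a3 of -0.50 and Slc37a4, the glucose-6-phosphate carrier, of 0.36. Slc45a3 had 0.62 TPM in M and 68.0 in MR (log2 ratio 5.42, counting interval 4.62 to 5.85). In M the value of Slc45a3 rested on a fragment over 19.9% of its exon bases with about 3 read pairs, and in MR its locus covered 99.5%. Its log2 ratio was 3.41 in coverage per aligned Gb. Slc5a3, the sodium-coupled carrier of myo-inositol, had 12.6 and 87.0 TPM, but its locus also held Mrps6, and the log2 ratio of 2.70 was 0.16 in listed coverage per aligned Gb. Slc5a2 had 16.02 TPM in M and no locus in MR. The M locus of Slc5a2 covered 20.6% of its exon bases and lay over 1237 exon bases of BC017158 on the other strand, so that reads of the 2 genes cannot be told apart without stated strandedness. Slc45a4 had 21.1 TPM in M and 9.01 in MR (log2 ratio -1.14). Slc5a6, grouped here by its number, carries biotin and pantothenate and had 4.38 and 6.04 TPM.

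Carriers of nucleosides had 5 of 7 genes detected, of which 2 were higher and 2 were lower in MR. Of the 4 at 1 TPM or more in both libraries, 1 was higher and 2 were lower, with a median of -1.01. Slc29a1, the equilibrative nucleoside carrier of the plasma membrane, had 29.9 TPM in M and 125 in MR (log2 ratio 2.03, counting interval 1.63 to 2.45). Slc28a2, a sodium-coupled carrier that takes up purine nucleosides and uridine, had 113 TPM in M and 14.98 in MR (log2 ratio -2.83, counting interval -3.03 to -2.62). The neighbouring gene Gm14085 is a close copy of Slc28a2, so that the division of reads between them is uncertain. Slc28a1 had no locus in M and 2.40 TPM in MR, and Slc29a2 differed by -0.14. Of 12 enzymes of nucleoside turnover, 3 were higher and 5 were lower, among them uridine-cytidine kinase Uck2 with 1.90 TPM in M and 27.04 in MR, uridine phosphorylase Upp1 with 1.79 and 14.4, deoxycytidine kinase Dck with 196 and 56.5 and adenosine kinase Adk with 30.5 and 9.48. For this list and the gene lists below, the shares of all tested coding genes were again 19.3% higher and 11.7% lower.

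**Figure D3:**
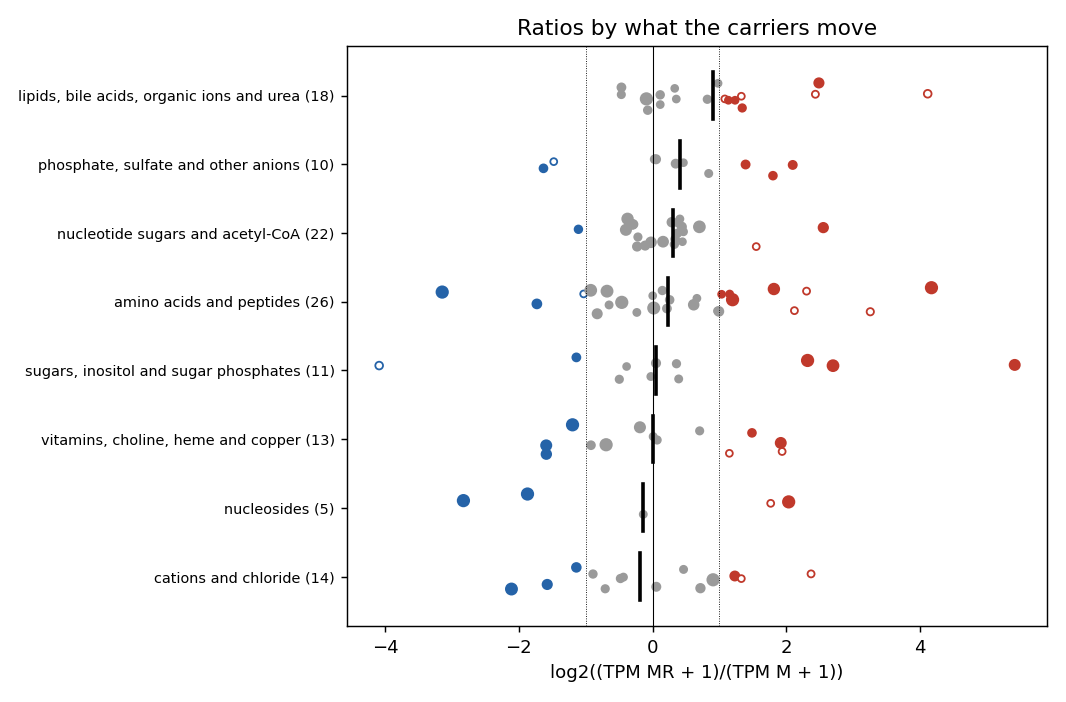
Log2 ratio of MR to M (horizontal axis) of the 119 solute carriers by transport group, with the number of members in parentheses, the group median as a black bar, points of greater size for higher levels up to 100 TPM, and open points for carriers with no locus in 1 library. The medians run from -0.19 for cations and chloride to 0.90 for lipids, bile acids, organic ions and urea, and no point of the latter group lies below -1. In the latter group 7 of 18 carriers passed the level only through MR.

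Carriers of vitamins, choline, heme and copper had 13 of 20 genes detected, with 4 higher, 3 lower and a median of 0.01. Of the 4 higher, 2 had passed the level only through MR. Of the 11 at 1 TPM or more in both libraries, 2 were higher and 3 were lower, with a median of -0.19. The choline carriers lay on opposite sides. Slc44a1, the choline carrier of plasma and mitochondrial membranes, had 17.1 TPM in M and 67.1 in MR (log2 ratio 1.92, counting interval 1.69 to 2.15). Its relative Slc44a2 had 68.9 and 22.2 TPM, a log2 ratio of -1.59 with an interval of -1.95 to -1.21. Among 7 enzymes that build choline phospholipids, 3 were higher and 2 were lower, including Pcyt1a with 50.7 and 103 TPM, Chpt1 with 19.8 and 80.6 and Cept1 with 109 and 53.5. Slc46a1, the proton-coupled folate carrier, had 5.69 TPM in M and 17.7 in MR (log2 ratio 1.49), and the reduced folate carrier Slc19a1 had 5.20 and 9.10. The folate receptor Folr2 had 516 TPM in M and 46.9 in MR, so that receptor and carrier differed in opposite directions. Slc23a2, which takes up ascorbate, had 53.9 and 17.2 TPM, a log2 ratio of -1.59 that was -0.44 in coverage per aligned Gb. Slc31a2, a copper carrier of vesicles, had 130 and 56.2 TPM, a log2 ratio of -1.20 that was -0.46 in coverage per aligned Gb. Slc31a1, the main copper uptake carrier, had 69.9 and 61.2 TPM, within the limit.

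Carriers of phosphate, sulfate and other anions had 10 of 30 genes detected, with 3 higher, 2 lower and a median of 0.40. Of the 8 at 1 TPM or more in both libraries, 3 were higher and 1 was lower, with a median of 0.59. Slc20a2, a sodium-phosphate carrier that also serves as a retrovirus receptor, had 4.78 TPM in M and 23.7 in MR (log2 ratio 2.10, counting interval 1.27 to 2.81). Its only relative, Slc20a1, had 17.96 and 23.1 TPM, so that the 2 phosphate carriers were at nearly the same level in MR but not in M. The phosphate exporter Xpr1 and the pyrophosphate and ATP exporter Ank, which belong to a list of 7 genes of phosphate handling with 3 higher and 1 lower, had 14.9 and 14.1 TPM in M and 274 and 305 in MR. The sulfate carrier Slc26a2 had 4.21 and 17.1 TPM, a log2 ratio of 1.80, whereas Slc26a11 had 18.9 and 5.41, a log2 ratio of -1.63, and lay over 91 exon bases of Sgsh on the other strand. Slc13a3, a sodium-coupled carrier of dicarboxylates such as succinate, had 8.27 and 23.3 TPM, a log2 ratio of 1.39.

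Carriers of cations and chloride had 14 of 21 genes detected, with 3 higher, 3 lower and a median of -0.19. Of the 12 at 1 TPM or more in both libraries, 1 was higher and 3 were lower, with a median of -0.46. Slc8b1, the exchanger that releases calcium from mitochondria for sodium, had 91.8 TPM in M and 20.5 in MR (log2 ratio -2.11, counting interval -2.71 to -1.46). Slc8a1, the sodium-calcium exchanger of the plasma membrane, had 36.3 and 15.9 TPM, a log2 ratio of -1.14. Both detected members of the Slc8 family were thus lower in MR. Slc12a9 had 48.9 and 15.7 TPM, a log2 ratio of -1.58, while Slc12a7, a potassium-chloride cotransporter, had 56.7 and 107 TPM, a log2 ratio of 0.90 within the limit. Slc12a5 and Slc24a4 had no locus in M and 4.17 and 1.51 TPM in MR. Slc41a2, a magnesium carrier, had 18.3 TPM in M and 44.2 in MR, the latter summed over 2 loci of 22.1 TPM each, and its log2 ratio of 1.23 was 0.26 with the mean over loci.

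Nucleotide sugar and acetyl-CoA carriers had the smallest share of members past the limit among the 8 groups. Of 28 genes 22 were members, and 19 of these lay within the limit, with a median of 0.31. Of the 20 at 1 TPM or more in both libraries, 1 was higher and 1 was lower, with a median of 0.22. Slc35b1 was the most abundant in M with 78.0 TPM and had 59.95 in MR, and Slc35a4 was the most abundant in MR with 86.3 TPM and had 52.7 in M. The exception with the highest level was Slc35e4, whose substrate is not established, with 7.91 TPM in M and 51.3 in MR (log2 ratio 2.55, counting interval 2.32 to 2.79). Slc35g2 had no locus in M and 1.93 TPM in MR. Slc35e3 had 14.4 and 6.13 TPM, but it was split into 2 loci in M, and its log2 ratio of -1.11 was -0.43 with the mean over loci. The sialic acid carrier Slc35a1 and the galactose carrier Slc35a2 had log2 ratios of 0.37 and -0.29. Of 13 detected enzymes that supply nucleotide sugars, 3 were higher and none was lower, among them Cmas, which activates sialic acid, at a log2 ratio of 1.13 and Galt, an enzyme of galactose use, at 1.39.

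Carriers of lipids, bile acids, organic ions and urea had 18 of 48 genes detected, of which 8 were higher, none was lower and the median was 0.90. Of the 8, 6 had passed the level only through MR and could lie on no other side, namely Slc14a2, Slc27a2, Slc27a6 and Slc22a23, which had no locus in M, and Slc18b1 and Slc22a17. Slc22a17 had a log2 ratio of 0.46 with the mean over loci. Among the 11 carriers of the group at 1 TPM or more in both libraries, 2 were higher, none was lower and the median was 0.11. Slc18a1, the vesicular monoamine carrier VMAT1, had 7.90 TPM in M and 48.9 in MR (log2 ratio 2.49, counting interval 1.94 to 3.01). Slc18a1 lay over 283 exon bases of Atp6v1b2 on the other strand, and its level in M was split over 2 loci. Its log2 ratio was 3.23 with the mean over loci and 1.65 in coverage per aligned Gb. Slc14a2, a urea carrier, had 16.3 TPM in MR on a locus over 39.7% of its exon bases. Slc22a4, the ergothioneine carrier, had 3.99 and 11.6 TPM, a log2 ratio of 1.34 that was 0.89 in coverage per aligned Gb. The most abundant of the group was Slc27a1, a fatty acid carrier with acyl-CoA synthetase activity, which had 203 and 190 TPM, a log2 ratio of -0.09. Of 7 detected genes of fatty acid binding and activation none was higher and 3 were lower, namely Cd36 with 513 TPM in M and 48.96 in MR, Fabp5 with 2114 and 556 and Fabp4 with 110 and 23.9.

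Relatives within a family lay on opposite sides in several cases. Of the 34 families with a member, 30 had at least 2, and 10 held members past the limit in both directions: Slc1, Slc5, Slc12, Slc26, Slc28, Slc29, Slc35, Slc36, Slc44 and Slc45. In Slc26, Slc29, Slc35, Slc36, Slc44 and Slc45 both directions included a carrier with a locus in each library, and in the 4 others 1 direction rested on a carrier without a locus in 1 library. The higher direction of Slc36 and of Slc45 rested on Slc36a3 and Slc45a3 alone. Both had passed the level only through MR and, like the carriers without a locus in 1 library, could lie on no other side. The level of Slc36a3 in MR was summed over fragments of 0.754 TPM each, none of which reached the limit of 1 TPM alone. Slc29 was on both sides only with summed loci, since Slc29a3 was within the limit with the mean over loci, and Slc35e3 and Slc36a3 were likewise within it with the mean. The Slc6 family, in contrast, had 5 of 9 members higher and none lower, although 3 of the 5 had no locus in M and Slc6a9 was within the limit with the mean over loci. No gene of the families Slc32, Slc34, Slc47 and Slc51 reached a TPM of 1 in either library.

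**Figure D4:**
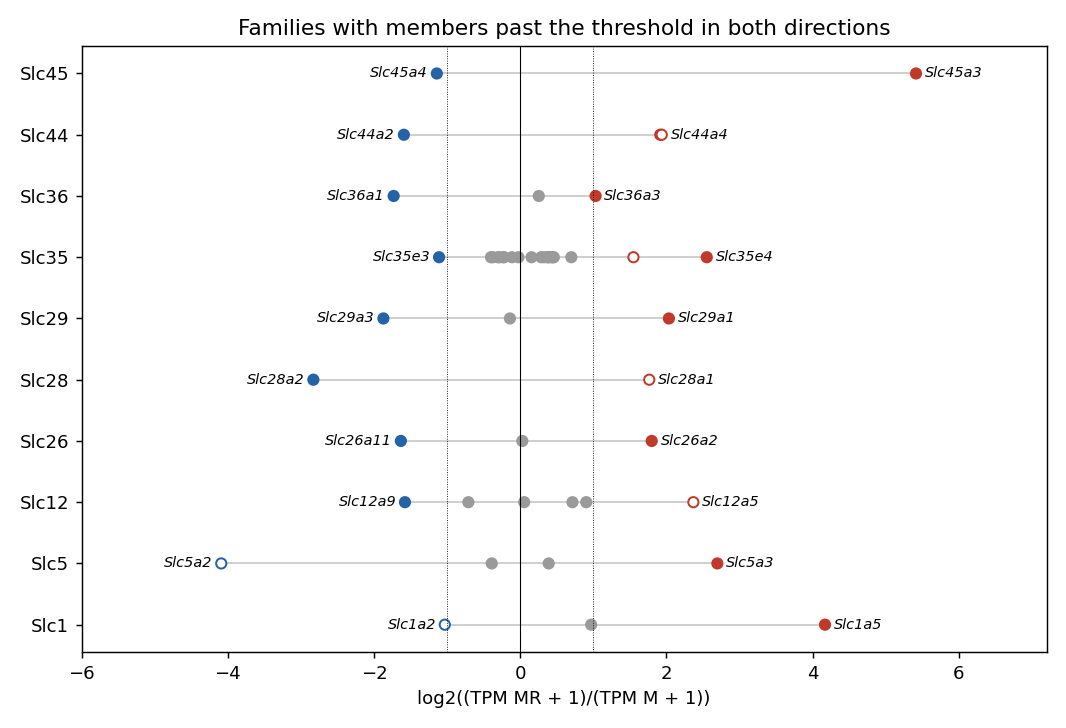
Log2 ratio of MR to M (horizontal axis) of each detected solute carrier in the 10 families that had members past the limit in both directions, 1 point per gene, red above 1, blue below -1 and open for carriers with no locus in 1 library. The families spread furthest are Slc5 and Slc45, from Slc5a2 to Slc5a3 and from Slc45a4 to Slc45a3.

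How the loci of a gene were joined mattered for a minority of the carriers. Of the 119 members, 78 had exactly 1 locus in each library and 28 had more than 1 in at least 1 library. With the mean over loci, weighted by exon bases, 29 of the 33 higher and 13 of the 16 lower carriers stayed past the limit. Those that did not were Slc41a2, Slc22a17, Slc36a3 and Slc6a9 among the higher and Slc29a3, Slc17a8 and Slc35e3 among the lower. Slc5a6 and Slc35d2 lay past the limit only with the mean, at 1.36 and -1.002.

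**Figure D5:**
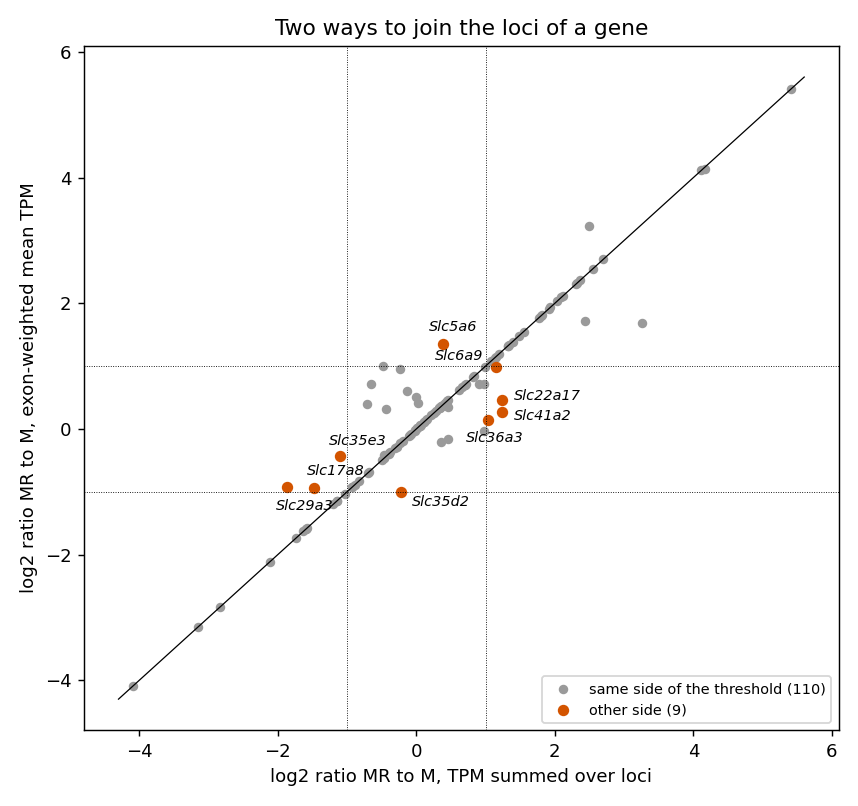
Log2 ratio of MR to M of the 119 solute carriers with TPM summed over the loci of a gene (horizontal) and with the exon-weighted mean TPM over those loci (vertical), 1 point per gene; the line marks equal values and the dotted lines a log2 ratio of 1 in either direction. The 9 orange points, named, are on another side of the limit in one of the ways, and the 110 grey points are on the same side in both.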

How the data were processed

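The authors trimmed adaptors with Trim Galore, aligned paired reads of 150 bases to mm10 with HISAT2 and quantified them with StringTie on GENCODE vM27. The deposited tables list coverage, a signal not scaled to library size, FPKM and TPM for each entry, where the authors scaled TPM over the assembled loci alone. Since vM27 gives GRCm39 positions, the entries with gene names were not used. Of the 19422 loci of M and 19922 of MR, 15665 and 16523 could be assigned to a GENCODE vM21 gene, the one with most exon bases inside the locus (minimum 50) on a compatible strand, which placed 95.4% of the TPM of M and 96.9% of that of MR. TPM was summed per gene, a gene without a locus was set to 0, and log2 ratios were taken with a pseudocount of 1. The assignment was tested on simulated data. Aligned bases were read from the ratio of coverage to FPKM. Counting intervals are Wilson intervals at 95% with read pairs estimated from FPKM, aligned bases and the shortest coding transcript at 300 bases per pair, and cover counting error only. Members, lists and alternatives were chosen with earlier results of these data known. Named carriers are those with a TPM of at least 10 and a log2 ratio past 1, the most abundant of each transport group, those nearest the TPM limit of 1, and the lysosome list. Other carriers were named after their values were seen. A few genes of the lists are not reported here by name. Transport groups follow the family number. Motifs were searched on both strands of RefSeq windows. Strandedness of the libraries is not given in the sources used here. The scripts used Python 3.11.15 with pandas 2.3.3, matplotlib 3.10.9, scipy 1.17.1 and numpy 2.4.6.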

Additional observations from a re-analysis of the deposited data

How the results depend on the processing

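The count of higher carriers was 33 and that of lower carriers 16. With a TPM of at least 10 the higher count was 17, and with a log2 threshold of 2 the counts were 14 higher and 4 lower, since fewer genes can pass these limits. Under a pseudocount of 0.1, no filter, FPKM, median-of-ratios scaling, removal of mitochondrial and the 20 most abundant genes, loci not shared with another gene, coverage per aligned Gb and the mean over loci (the last added after the data were seen), the counts ran from 23 to 36 higher and from 14 to 19 lower, within 1.5 times of the main counts. Dropping the filter could not change the counts, because a ratio past the limit already needs more than 1 TPM in a library. The members' median log2 ratio ran from 0.15 to 0.33 over these settings and was 0.05 with a TPM of at least 10. It was 0.29 with absent genes set to the 5th percentile of the loci, also added later. That setting alters only carriers without a locus in 1 library, all past the limit, so it is no separate check of the median. No named carrier past the limit changed sign under these alternatives. In coverage per aligned Gb, 33 of the 33 higher carriers stayed positive and 21 past the limit, and 16 of the 16 lower stayed negative and 12 past it. The pseudocount of 1 was also used for FPKM and coverage per aligned Gb, whose values are lower than TPM. With FPKM the counts were 24 higher and 14 lower. The cause of these differences was not tested. No replicate could be left out. No paired analysis was possible because each condition has 1 library. Carriers near a TPM of 1 rest on few reads, and a missing locus does not show that a transcript was absent.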

Other observations

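The assembled 5′ ends of some carriers differed between the libraries. Of 78 members with exactly 1 locus in each library, 11, or 14.1%, had 5′ ends more than 1000 bases apart, beside 7.22% of 8971 tested coding genes with 1 locus in each. This count was made after the ends had been seen, and an end can also differ where the locus of 1 library is a fragment, as for Slc45a3 in M. For Slc29a1 the M locus began at position 45595574 of chromosome 17, 2 bases from an annotated transcript start of the gene, and the MR locus began at 45599627, 21 bases from another, 4053 bases further upstream. Slc45a4 began 65 bases from an annotated start in M and 581 bases from one in MR, and these ends were 39649 bases apart. Slc28a2 began 87 bases from an annotated start in M and, 13941 bases further downstream, 432 bases from one in MR, where its level was low. Reads per exon were not analysed here, and the part of depth in these differences was not tested.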
